A study of Mus musculus with 2 samples.

Results

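Brain apolipoproteins and the receptors that bind them were examined in the cerebral cortex of presenilin conditional double knockout (PS cDKO) and control mice. The set comprised 9 genes, namely the secreted apolipoproteins Apoe, Clu and Apod, the lipid exporter Abca1, the receptors Lrp1, Lrp8, Vldlr and Sorl1, and the receptor chaperone Lrpap1. All probe sets that the platform annotation paired with exactly 1 of these symbols were taken, which gave 13 of the 12418 probe sets on the array, or of the 10829 with a single symbol. They stood for 8 of the 9 genes, out of 8251 genes in all, because no probe set was paired with Lrp8. The data were 1 array of total RNA from PS cDKO cortex and 1 from control cortex, both at 6 months of age. The labels do not give the alleles, the Cre driver, the genotype of the control mice, their sex or whether an array held RNA of 1 animal or of a pool. With 1 array per genotype no difference could be set against the variation between animals, so no p-value is given and every comparison is a description of these arrays.

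Apolipoproteins of the brain carry cholesterol and phospholipids between cells. Astrocytes are the main source of apolipoprotein E and clusterin, and the transporter ABCA1 loads the secreted proteins with lipid. Receptors of the lipoprotein receptor family take up the resulting particles, and ApoER2 (Lrp8) and the VLDL receptor also carry the reelin signal in neurons. Presenilin is the catalytic subunit of γ-secretase, and LRP1, ApoER2, the VLDL receptor and SORL1 are known substrates of that protease. The comparison therefore concerned the transcripts of lipid carriers and of receptors whose proteins are known to be cleaved by γ-secretase. The labels do not say in which cells presenilin was lost.

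The promoters of Apoe, the member with the highest ratio, and of Abca1, the exporter that lipidates its product, are shown because both genes are known targets of the liver X receptors (LXR). Each sequence is the 250 bases before the outermost start in the RefSeq promoter table (GRCm38.p6), read 5′ to 3′ on the minus strand, which is the strand of both genes. Capitals mark matches on either strand to any of 4 motifs. The DR4 element of LXR type was searched as GGTTA followed by any 5 bases and then by GGTCA. The GC box was searched as GGGCGG. The letters TATAAA were taken as the TATA box, and CACGTG as the E-box. The Apoe window was chr7:19699189-19699438 and the Abca1 window chr4:53159896-53160145.
Apoe: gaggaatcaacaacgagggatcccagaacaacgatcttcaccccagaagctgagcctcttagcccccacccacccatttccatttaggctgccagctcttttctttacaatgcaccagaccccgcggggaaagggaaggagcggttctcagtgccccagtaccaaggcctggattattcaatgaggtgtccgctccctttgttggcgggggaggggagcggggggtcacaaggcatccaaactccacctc
Abca1: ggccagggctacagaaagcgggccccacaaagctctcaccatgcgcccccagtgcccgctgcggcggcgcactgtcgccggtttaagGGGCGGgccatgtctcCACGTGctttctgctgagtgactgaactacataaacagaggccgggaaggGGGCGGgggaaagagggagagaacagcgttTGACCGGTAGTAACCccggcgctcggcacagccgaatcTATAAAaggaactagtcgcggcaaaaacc

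The Abca1 window held 1 match to the DR4 letters on the opposite strand, 52 bases before the annotated start, with 2 GC boxes, 1 E-box and a TATA box that ended 23 bases before the start. No 2 of these matches overlapped. The DR4 letters were chosen after the Abca1 sequence was seen, and they occurred in 0.0457% of all 32851 promoter windows of this length. The printed Apoe window matched none of the 4 motifs, which says only that these letters are not in this window. Another Apoe window, at chr7:19698622-19698871, held 2 matches to the TATA box. The members had 14 windows from 8 genes, which here include Lrp8 but not Clu. Of these windows 5 held a GC box, against 32.7% of all windows. A TATA box was present in 2 of them, against 12.4% of all windows, and an E-box in 2, against 6.02%. No array value was tested against a motif.

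Of the 13 probe sets, 7 lay above an intensity floor of 232 on both arrays, 1 lay above it on the control array only, and 5 lay below it on both. The floor is the 40th percentile of both arrays pooled, and below it a ratio was not formed. The presenilin gene Psen2 had 94.9 in the PS cDKO cortex and 105 in the control cortex, both below the floor, and so gave no check of the genotype. Ratios are PS cDKO over control after the PS cDKO array had been multiplied by 1.02, whereas the intensities given are those deposited by the authors. A probe set over the floor on both arrays is called measured below. A difference was counted when the PS cDKO signal was at least 25% above or at least 20% below that of the control, an absolute log2 ratio of 0.32 or more. By that count 1 of the 8 probe sets with a ratio or bound, 12.5%, was higher and 0 were lower. Among all 6905 such probe sets 8.57% were higher and 8.82% lower. The share among the members was thus near that of the array, and it rested on Apoe alone. At 1.5-fold none of the 8 was counted, where 1.27% of all probe sets were higher and 1.01% lower. The median log2 ratio of the 7 measured probe sets was -0.02, against 0.0045 over all 6255 measured probe sets with a single symbol, and 3 were higher and 4 lower.

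**Figure D1:**
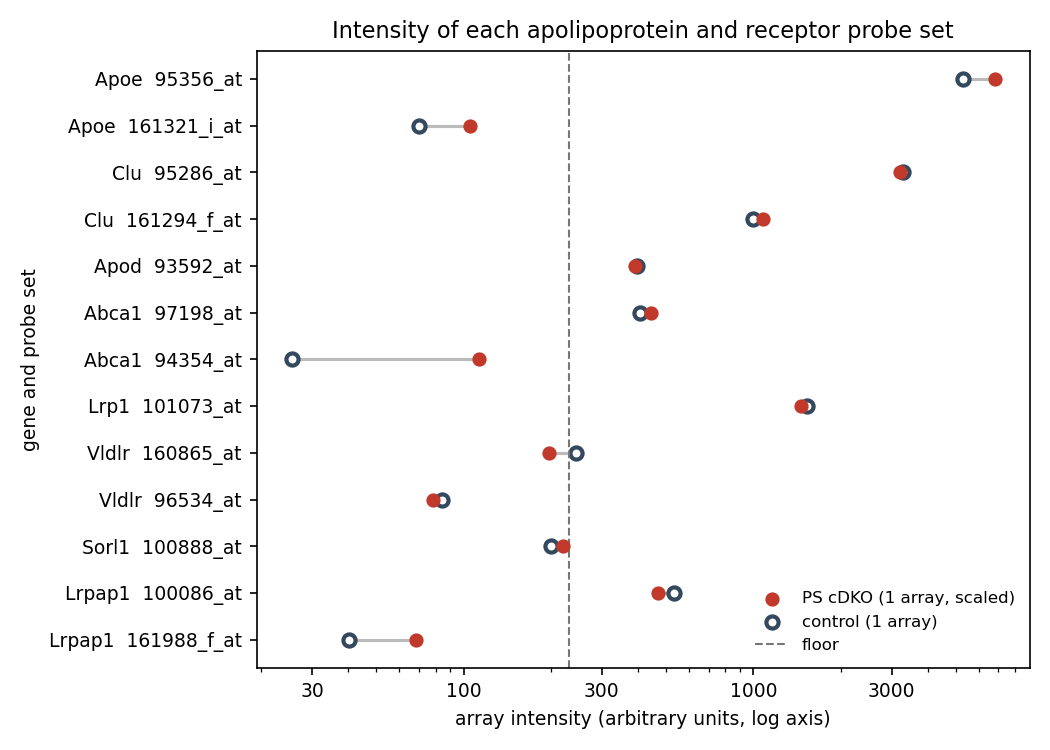
Array intensity (arbitrary units, log axis) of the 13 probe sets, with a filled point for the PS cDKO array after scaling, an open point for the control array and a dashed line at the floor of 232. Apoe 95356_at shows the widest gap among the probe sets right of the floor, while several probe sets left of it have wider gaps that gave no ratio.

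Apoe, the main lipid carrier of the brain, was the member with the highest ratio. Its probe set 95356_at had an intensity of 6642 in the PS cDKO cortex, against 5282 in the control cortex. The PS cDKO signal was 1.29-fold that of the control, a log2 ratio of 0.36. Among all measured probe sets this lay at the 94.3rd percentile of the log2 ratio, and 12.1% had an absolute log2 ratio as large. The transcript gave one of the brighter signals, and bright probe sets on these arrays tended to lie lower in the PS cDKO. In the brightest 10%, 626 probe sets with a mean signal of at least 1395, the median log2 ratio was -0.07. There 4.31% passed the threshold upward and 16.9% passed it downward. Apoe ranked 22nd from the top of these 626 by log2 ratio, so that 3.51% were as high or higher. In RNA of whole cortex, more cells of a type and more transcript per cell cannot be told apart.

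Another Apoe probe set, 161321_i_at, was dim on both arrays, with 102.8 in the PS cDKO cortex and 70.0 in the control cortex. Both intensities were below the floor, so this probe set gave no ratio and no further measurement of Apoe. Without a floor it would have a log2 ratio of 0.59. Below the floor, however, 64.2% of 3902 named probe sets were higher in the PS cDKO, 29.7% passed the threshold upward and 12.7% were at least 1.5-fold higher.

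Clu encodes clusterin (apolipoprotein J), a secreted chaperone that also binds lipid. Its probe set 95286_at had 3143.5 in the PS cDKO cortex and 3293 in the control cortex, which is 1.02-fold lower after scaling. The other Clu probe set, 161294_f_at, had 1055 in the PS cDKO cortex and 993 in the control cortex, or 1.09-fold higher. The log2 ratios of -0.03 and 0.12 differed in sign and by 0.15, and their mean was 0.04. Clu was the only member with more than 1 measured probe set. Across the 749 genes with 2 such probe sets, the SD of a single log2 ratio estimated from the pairs was 0.21, so the gap between the Clu probe sets was within the scatter of the array.

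Apod, a lipocalin made by glia and by cells of the meninges and vessels, had an intensity of 382 in the PS cDKO cortex and 397 in the control cortex. This was 1.02-fold lower, a log2 ratio of -0.02. Among the 3 apolipoproteins, Apoe was thus the only one past the threshold. Its log2 ratio of 0.36 exceeded that of the brighter Clu probe set by 0.40, while the dimmer Clu probe set had 0.12. After quantile normalization Apoe had 0.38 and the brighter Clu probe set 0.11. The difference between the genes could not be tested with 1 array per genotype.

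Abca1, the exporter that passes cholesterol and phospholipid to apolipoprotein E, had 434 in the PS cDKO cortex and 406 in the control cortex with probe set 97198_at. It was 1.09-fold higher, with a log2 ratio of 0.13. Its other probe set, 94354_at, had 110.3 in the PS cDKO cortex and 25.5 in the control cortex. Both lay below the floor, and the ratio of 4.43-fold that they would give without one is a ratio of signals too dim to be ranked. The brighter Abca1 probe set did not reach the threshold.

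**Figure D2:**
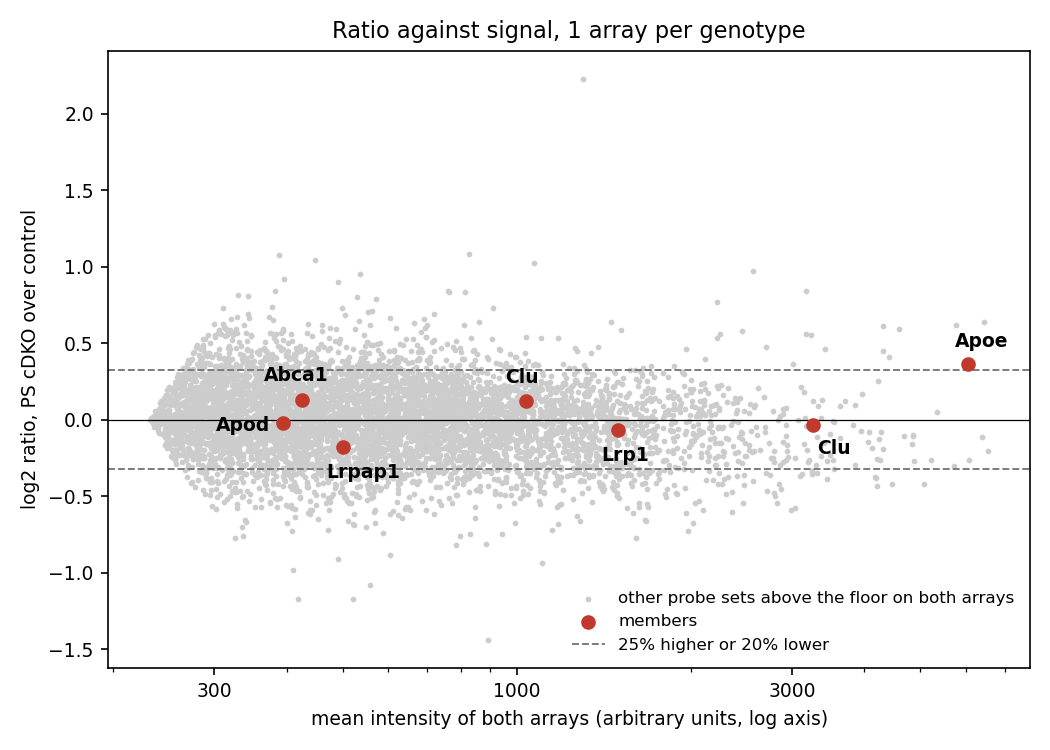
Log2 ratio of PS cDKO over control against the mean intensity of both arrays (arbitrary units, log axis) for the 6255 measured probe sets with a single symbol. The 7 member probe sets are in red and dashed lines mark 25% higher and 20% lower. Apoe lies at the bright end above the upper line, and the other 6 lie between the lines.

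Lrp1, a large endocytic receptor for apolipoprotein E and many other ligands, had 1428 in the PS cDKO cortex and 1531 in the control cortex. It was 1.05-fold lower, with a log2 ratio of -0.07. This was the only receptor of the set that was measured. Vldlr, a reelin and lipoprotein receptor, had 192 in the PS cDKO cortex and 244 in the control cortex with probe set 160865_at. The PS cDKO value was below the floor, so the transcript was at least 1.05-fold lower, and it was 1.24-fold lower with no floor. The other Vldlr probe set, 96534_at, had 76.7 in the PS cDKO cortex and 84.5 in the control cortex, both below the floor.

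Sorl1, a sorting receptor that binds the amyloid precursor protein, had 214 in the PS cDKO cortex and 199.8 in the control cortex. Both values lay just below the floor, and without one the log2 ratio was 0.14. No level of Lrp8 was measured. The receptors that carry the reelin signal therefore had 1 bound and no ratio between them.

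Lrpap1 encodes the receptor-associated protein, a chaperone of the endoplasmic reticulum that keeps newly made lipoprotein receptors from binding ligand too early. Its probe set 100086_at had 459 in the PS cDKO cortex and 531 in the control cortex. It was 1.13-fold lower, a log2 ratio of -0.18, the lowest of the measured members. The other probe set, 161988_f_at, had 67.2 in the PS cDKO cortex and 40.1 in the control cortex, both below the floor, and without a floor it pointed the other way at 1.71-fold higher. Of the 5 member probe sets below the floor on both arrays, 4 were higher without it and 1 was lower.

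The members other than Apoe had log2 ratios between -0.18 and 0.13, and all 6 of these probe sets had an absolute value below the SD of 0.21 from pairs of probe sets. The log2 ratio of Apoe was 1.72 times this SD, and 2.17 times the SD of 0.17 found among 70 genes whose paired probe sets both had a signal of 1000 or more. These SDs hold the scatter between probe sets of the same pair of arrays, not that between animals.

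Apoe lies in a cluster of apolipoprotein genes, and its neighbours were looked up after values had been seen. On one side, in order from Apoe, lie Apoc1, Apoc4 and Apoc2, which encode small apolipoproteins of plasma lipoproteins. Apoc1 had 236 in the PS cDKO cortex and 158 in the control cortex, which is at least 1.04-fold higher, and 1.52-fold higher with no floor. Apoc4 was below the floor on both arrays, with 217 in the PS cDKO cortex and 226 in the control cortex. Apoc2 had 612 in the PS cDKO cortex and 622 in the control cortex, 1.01-fold higher after scaling. On the other side Tomm40, a pore subunit of the mitochondrial outer membrane, had 836 in the PS cDKO cortex and 860.1 in the control cortex and differed by less than 1.01-fold. The adhesion gene Nectin2 beyond it was 1.15-fold higher in its probe set above the floor. None of the measured neighbours reached the threshold.

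Further genes of lipoprotein handling were sought in 6 lists. The list of the sortilin family gave no value, since none of its 4 genes was on the array. A gene's log2 ratio was averaged over its measured probe sets, and 50 genes had one. Of these 1 passed the threshold upward and 4 downward, or 2% and 8%, against 7.5% and 8.48% of all 5414 genes measured. Their median was 0.01. Cell type markers were described in the same way from 8 lists.

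Among 9 measured genes of other apolipoproteins and associated proteins, 6 were higher and 3 lower, with a median of 0.01 and 0 past the threshold. The acute-phase apolipoprotein Saa3 was 1.23-fold higher, Apoa5 1.17-fold higher and Saa2 1.12-fold higher. Apoh was 1.17-fold lower and Apoa4 1.15-fold lower. Several of these genes are known mainly from liver and intestine. Apob, the core protein of plasma LDL, was below the floor on both arrays, with 194 in the PS cDKO cortex and 162 in the control cortex. Apoa1 had 1597 in the PS cDKO cortex and 1631 in the control cortex, a brighter signal than that of Apod, Abca1 or Lrpap1. A signal over the floor does not by itself show that a gene is expressed in the cortex.

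Of 12 genes of lipid export and lipoprotein remodelling, 5 were higher and 7 lower, with a median of -0.09. Pltp, which transfers phospholipid between particles, was the 1 measured gene past the threshold, at 1.31-fold lower (381 in the PS cDKO cortex and 510.5 in the control cortex). The transporter Abca2 was 1.18-fold lower, the lysosomal glycoprotein Cd68 of macrophages 1.12-fold higher, the HDL receptor Scarb1 1.11-fold lower and the nuclear receptor Rxrg 1.11-fold lower. Abcg1, a sterol exporter that works beside ABCA1, was 1.08-fold lower. Lcat, which esterifies cholesterol on the particles, was 1.06-fold higher. Nr1h3, which encodes LXRα, was above the floor in the PS cDKO only, with 400.0 in the PS cDKO cortex and 223 in the control cortex. This is a bound of at least 1.77-fold higher, and the scaled signals with no floor give 1.83-fold. A floor raised to the 60th percentile left a bound of 1.02-fold. Genes named here that are known as LXR targets lay on both sides of 0. Log2 ratios were 0.36 for Apoe, 0.19 for Srebf1, 0.13 for Abca1, 0.06 for Lpl and 0.01 for Apoc2. They were -0.12 for Abcg1 and -0.39 for Pltp, and Apoc1 had a bound of at least 1.04-fold higher. This choice of targets was made after values were seen, and an effect of LXR was not tested.

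The reelin pathway was represented downstream and upstream of the receptors. Of 14 measured genes 8 were higher and 6 lower, with a median of 0.02, and 2 passed the threshold downward. Reln itself, the ligand, was 1.04-fold higher, and Dab1, the adaptor that binds the receptor tails, 1.05-fold higher. Fyn, a kinase that phosphorylates it, was 1.04-fold higher. The kinase Cdk5 was 1.35-fold lower (338 in the PS cDKO cortex and 466 in the control cortex). Pafah1b1, the lissencephaly protein LIS1, had a log2 ratio of -0.32 (1415 in the PS cDKO cortex and 1813 in the control cortex). Its log2 ratio fell short of the threshold after quantile normalization, at -0.26, and after lowess, at -0.25. The kinase Akt1 was 1.22-fold lower, the Cdk5 activator Cdk5r1 1.09-fold higher and the postsynaptic scaffold Dlg4 1.09-fold lower.

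The wider lipoprotein receptor family had few values, since 5 of 17 listed genes were on the array and 3 lay over the floor on both arrays. Lrp6, a Wnt co-receptor, was 1.22-fold higher and Lrp5, its relative, 1.18-fold lower. Snx17, which recycles LRP1 from endosomes, was 1.01-fold lower. Of 12 genes of cholesterol synthesis and storage 8 were higher and 4 lower, with a median of 0.18. This was the highest median of any setting run, and they ranged from 0.04 to 0.18. Nsdhl, an enzyme of sterol synthesis, was 1.38-fold higher from 1 of its 3 probe sets, whereas a further one lay lower, and its value was 1.02-fold with no floor. Fdps, which makes farnesyl pyrophosphate, was 1.31-fold lower. Mvk was 1.21-fold, the lysosomal cholesterol transporters Npc1 and Npc2 1.18-fold and 1.15-fold, and the lysosomal lipase Lipa 1.15-fold higher.

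**Figure D3:**
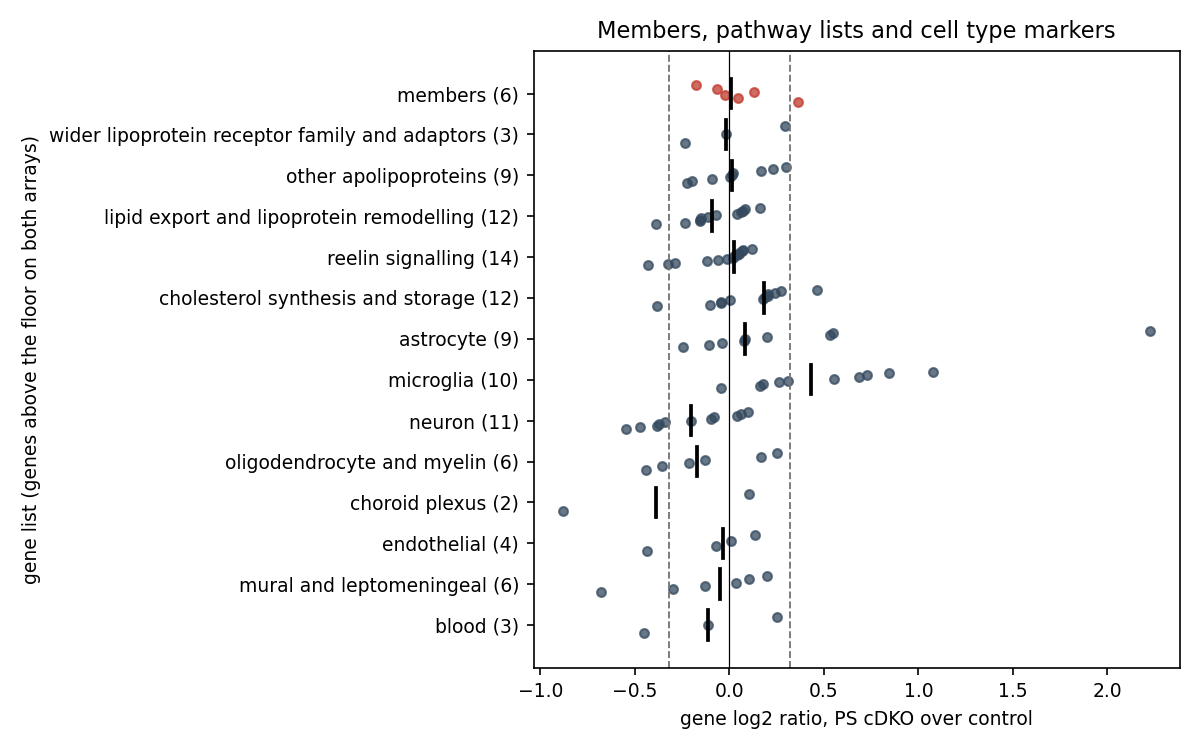
Log2 ratio of PS cDKO over control for each measured gene (points). Black bars are the medians, brackets hold the number of genes, and dashed lines mark 25% higher and 20% lower. The 6 member genes span 0 with only Apoe past a line, the pathway lists have medians from -0.09 to 0.18, the highest of these for cholesterol synthesis and storage, and the microglia markers have a median of 0.43.

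Markers of the cells that make apolipoprotein E were set beside its value. Of 10 measured microglia markers 9 were higher, 5 of them past the threshold, with a median of 0.43. C1qa was 2.11-fold, the protease Ctss 1.79-fold, C1qc 1.66-fold, Itgam 1.61-fold and Tyrobp 1.47-fold higher. The microglial signal was summed over 11 probe sets after scaling and with the floor applied. This sum was 7444 in the PS cDKO cortex and 4830.0 in the control cortex. The listed markers Aif1 and Lyz2 were below the floor on both arrays. Of 9 astrocyte markers 6 were higher, 3 of them past the threshold, with a median of 0.08. Gfap, the filament of reactive astrocytes, was 4.68-fold, the connexin Gja1 1.46-fold and the water channel Aqp4 1.45-fold higher. The value of Gja1 averages probe sets that disagreed, since the brighter probe set, of suffix _f, was 1.01-fold higher (1440 in the PS cDKO cortex and 1455 in the control cortex) and the dimmer one, of suffix _r, 2.11-fold higher (515 in the PS cDKO cortex and 249.8 in the control cortex). The glycolytic enzyme Aldoc was 1.19-fold lower and the glutamate transporter Slc1a2 1.15-fold higher. The summed astrocyte signal was 19035 in the PS cDKO cortex and 16163 in the control cortex. Without Gfap it was 15444 in the PS cDKO cortex and 15473 in the control cortex. Such a sum gives most weight to the brightest probe sets. The median log2 ratio without Gfap was 0.08. With Gfap it was 0.19 after quantile normalization and after lowess.

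Markers of other cells had medians below 0 in the main setting. Those of the endothelial, mural and leptomeningeal, oligodendrocyte and blood lists turned positive in some settings, up to 0.14, 0.04, 0.15 and 0.23. Of 11 neuronal markers 8 were lower, 5 of them past the threshold, with a median of -0.20. Thy1 was 1.46-fold, the neurofilament Nefl 1.39-fold, Tubb3 1.31-fold, Snap25 1.30-fold and Syp 1.27-fold lower. Their summed signal was 19515 in the PS cDKO cortex and 23102 in the control cortex. The 6 oligodendrocyte markers had a median of -0.17, with Mobp 1.36-fold, Cldn11 1.28-fold and Mag 1.16-fold lower, and Ugt8a 1.19-fold and Mbp 1.12-fold higher. The choroid plexus transcript Ttr was 1.84-fold lower and Folr1 1.07-fold higher. Endothelial markers had a median of -0.03, with Cldn5 1.35-fold lower and Kdr at a log2 ratio of 0.14, and mural and leptomeningeal markers -0.05, with Igfbp2 at a log2 ratio of -0.68, Rgs5 1.23-fold lower and Col1a1 1.15-fold higher. For 3 blood markers the median was -0.11. The globin Hba-a1 was 1.37-fold lower and Cd3e 1.19-fold higher. The part of any of these cell types in the value of Apoe was not tested.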

How the data were processed

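The data were 1 array each from PS cDKO and control cortex. The deposited table holds linear array intensities, 1 per probe set. Neither the software nor the background step nor the scaling is given in the sources used here. The median intensity was 305 on the PS cDKO array and 299.7 on the control array, with 18 and 13 values below 0.

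Gene names came from the platform's annotation, which can be out of date, and list genes took their symbols from a RefSeq table by gene ID. The PS cDKO array was scaled by 1.02 so that log2 ratios had a median of 0 over probe sets brighter than the median of each array. Intensities were set to a floor at the 40th percentile, 232, before log2. Members were called by size, at 25% higher or 20% lower, with no test, and the number of arrays limits the precision. The procedure was run on simulated data, which checked the scaling and large planted changes in bright probe sets. The call at 25% higher or 20% lower and the floor were not checked in that way.

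The members and gene lists were chosen with earlier results of these data known. All member probe sets are named, with up to 5 genes of each list by absolute log2 ratio and every pathway gene past that threshold. Any other gene was chosen after its values were seen, among them Reln, Dab1, Fyn, Abcg1, Lcat, Lpl, Srebf1, Apob, Apoa1 and the neighbours of Apoe. A further gene of the lipoprotein receptor list is not reported here. Likeness of pattern was not ranked over 2 arrays. Alternatives were the intensities as deposited, quantile normalization, lowess (span 0.3), other floors, a 1.5-fold threshold, no probe sets with a letter suffix such as _f or _i in the identifier and other gene values. Python 3.11.15, numpy 2.4.6, pandas 2.3.3, statsmodels 0.14.6 and matplotlib 3.10.9 were used.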

Additional observations from a re-analysis of the deposited data

How the results depend on the processing

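Leaving out an array would leave a genotype empty. No paired analysis was possible because both genotypes have a single array. Apoe 95356_at stayed past the threshold as deposited (1.26-fold higher), after quantile normalization (1.30-fold) and after lowess, with log2 ratios of 0.33 to 0.54. Other floors could not move so bright a probe set, and its value was the same there. The highest came after lowess, 1.46-fold. Clu 95286_at ranged from -0.07 to 0.11 and turned positive after quantile normalization (0.11) and after lowess (0.10), below the threshold throughout. The number of member probe sets past the threshold upward became 4 with no floor, where dim probe sets entered, and 0 at 1.5-fold. The number past it downward was 0 in every setting run. The median over the members ranged from -0.06 to 0.12. Vldlr 160865_at had a log2 ratio of -0.31 both without a floor and with one at the 20th percentile. A floor at the 20th percentile gave the wider lipoprotein receptor family a median of 0.23, and its medians ranged from -0.13 to 0.23 over the settings. With no floor the oligodendrocyte list had 0.15, the choroid plexus list -0.88 and the blood list 0.14. The blood list had 0.23 after quantile normalization and -0.45 with the floor at the 60th. The causes of these shifts were not tested. Of 196 alternative values, 181 moved by less than the SD of 0.21 from paired probe sets, or by no more than 1.5 times for a count. Many of them could hardly move, so the share says little of stability. Another floor leaves a bright probe set unchanged, and the deposited intensities lower the ratio of a measured probe set by 0.03. The bound for Nr1h3 and the values of Nsdhl, Fdps and Cdk5 depended on the floor. Nsdhl was 1.07-fold higher with a floor at the 20th percentile, Fdps had a log2 ratio of -0.14 with no floor, and Cdk5 was at least 1.16-fold lower with a floor at the 60th percentile. Pafah1b1 had log2 ratios of -0.26 after quantile normalization and -0.25 after lowess, short of the threshold. Scaling moved the median of all probe sets by less than 0.1 on the log2 scale. Probe sets near the floor limit what can be said of Vldlr and Sorl1.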
